A study of Mus musculus with 12 samples.

Results

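The Hox genes of the mouse were followed in RNA of whole spinal cord tissue, gene by gene and library by library, to see which cord levels the samples carried and whether that differed between genotypes. The members were all genes of the count table whose symbol is Hox, a cluster letter from a to d and a number, and whose biotype is protein coding. This gave 39 of the 45906 listed genes, with 11 in the HoxA cluster on chromosome 6, 10 in HoxB on chromosome 11, 9 in HoxC on chromosome 15 and 9 in HoxD on chromosome 2. The 12 libraries came from mice aged 7 months, with 3 libraries in each of 4 genotypes. Plekhg5+/+ mice were the wild type, Plekhg5-/- mice were deficient for Plekhg5, a regulator of autophagy at motoneuron terminals, Plekhg5+/+ SOD1-G93A mice carried the low copy transgene of mutant human SOD1, which causes motoneuron disease with a slow course, and Plekhg5-/- SOD1-G93A mice combined both changes. The mice shared a C57BL/6 background, sex was not considered in the study, and the sources used here do not give the segments that were dissected. The tissue was bulk, so that fewer cells of a type or level and less RNA per cell cannot be told apart.

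Hox genes encode homeodomain transcription factors and lie in 4 clusters. Within a cluster, genes at the 3′ end carry low paralog numbers and are expressed from the hindbrain on, and genes at the 5′ end carry high numbers and start further towards the tail, a rule called colinearity. In the spinal cord, groups 4 to 7 are known for the cervical and brachial cord, groups 8 and 9 for the thoracic cord, groups 10 and 11 for the lumbar and sacral cord, and groups 12 and 13 for the tail end. Part of this code persists in adult tissue. The 39 members were sorted into these classes together with groups 1 to 3, whose domains reach into the hindbrain.

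RefSeq promoters, from 250 bases before to 50 bases after an annotated start, were at hand for 22 of the 39 genes. The sequences below are those of Hoxd11 and Hoxd10, which had 2 of the 3 widest ranges across libraries among the group 10 and 11 genes, and of Hoxa5, which varied in the opposite direction. They lie in GRCm38.p6 at chr2:74682073-74682372 on the plus strand for Hoxd11, at chr2:74691641-74691940 on the plus strand for Hoxd10 and at chr6:52204538-52204837 on the minus strand for Hoxa5, and are written 5′ to 3′. Capitals mark matches on either strand to TGATTNAT, a sequence bound by Hox proteins together with Pbx proteins, to TATAAA, the TATA box, or to CCAAT, the CCAAT box, and no matches overlap.

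Hoxd11: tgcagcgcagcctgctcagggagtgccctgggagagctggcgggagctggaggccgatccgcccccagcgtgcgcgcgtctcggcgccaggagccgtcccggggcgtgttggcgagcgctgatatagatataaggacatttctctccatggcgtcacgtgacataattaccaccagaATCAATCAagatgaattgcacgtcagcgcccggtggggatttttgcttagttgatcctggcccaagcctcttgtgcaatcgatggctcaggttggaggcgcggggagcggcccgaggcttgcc
Hoxd10: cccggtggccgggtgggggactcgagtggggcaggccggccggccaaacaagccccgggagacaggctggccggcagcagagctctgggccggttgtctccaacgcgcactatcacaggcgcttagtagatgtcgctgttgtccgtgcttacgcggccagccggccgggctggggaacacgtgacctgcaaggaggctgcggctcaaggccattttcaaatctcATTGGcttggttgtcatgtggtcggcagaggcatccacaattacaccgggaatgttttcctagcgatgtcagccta
Hoxa5: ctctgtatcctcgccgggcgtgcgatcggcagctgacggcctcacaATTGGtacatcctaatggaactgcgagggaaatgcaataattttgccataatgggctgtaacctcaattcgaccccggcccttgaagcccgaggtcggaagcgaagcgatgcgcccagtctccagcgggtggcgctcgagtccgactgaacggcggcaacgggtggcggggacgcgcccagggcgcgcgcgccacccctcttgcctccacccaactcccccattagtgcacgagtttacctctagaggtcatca

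The table lists 2 starts for Hoxd11, and the second promoter, at chr2:74679308-74679607, is not printed and held no match to any of the 3 sequences. The printed window of Hoxd11 held 1 match to TGATTNAT, which 3.22% of all 32851 promoters in the RefSeq table hold. Hoxd10 and Hoxa5 each held 1 match to CCAAT, found in 37.4% of all promoters, and none of these windows held TATAAA, found in 13.6%. Over the 24 Hox promoters, 2 held TGATTNAT, 4 held TATAAA and 15 held CCAAT. CpG dinucleotides numbered 25 in the printed window of Hoxd11 and 4 in its other promoter, 22 in that of Hoxd10 and 29 in that of Hoxa5, against a median of 7 over all promoters and 14.5 over the Hox promoters.

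The libraries held between 30415643 and 38743628 counts, so that 3 counts, the limit that a count of 0 allows for counting error, amount to between 0.0777 and 0.099 counts per 1000000 (CPM). Counting error here treats reads as molecules, which PCR copies are not. Plekhg5 lay between 19.4 and 25.0 CPM in the 6 Plekhg5+/+ and Plekhg5+/+ SOD1-G93A libraries and between 3.28 and 4.72 CPM in the other 6, and human SOD1 lay between 4420 and 5640 CPM in the transgenic and between 0.153 and 5.47 CPM in the other libraries, as labelled. The 6 motoneuron markers, among them Chat, summed to between 275 and 283 CPM in Plekhg5+/+ and between 272 and 284 in Plekhg5-/-. Their sums lay between 201 and 263 CPM in Plekhg5+/+ SOD1-G93A and between 225 and 306 in Plekhg5-/- SOD1-G93A. Genes of other tissues were not even between libraries. The 4 Schwann cell markers summed to between 230 and 351 CPM in Plekhg5-/- SOD1-G93A. They summed to 48.6 to 135 CPM in Plekhg5+/+ SOD1-G93A, 50.7 to 97.1 in Plekhg5-/- and 61.9 to 239 in Plekhg5+/+. The 5 meningeal fibroblast markers summed to between 163 and 265 CPM in Plekhg5-/- SOD1-G93A. In the same order, the other genotypes had 94.6 to 156, 76.5 to 147 and 85.7 to 175 CPM. Their part in the Hox values was not tested. The 4 markers of hindbrain nuclei summed to 5.25 CPM in Plekhg5+/+ SOD1-G93A library 3 and to 10.5 CPM in Plekhg5-/- SOD1-G93A library 2, against 1.02 to 1.89 CPM in the other 10. The 6 dorsal root ganglion markers summed to 19.8 CPM in Plekhg5-/- SOD1-G93A library 2 and to between 1.28 and 2.56 CPM elsewhere. The 4 skeletal muscle markers summed to 121 CPM in Plekhg5+/+ library 3, 35.4 in Plekhg5-/- library 2, 63.1 in Plekhg5+/+ SOD1-G93A library 3 and 27.3 in Plekhg5-/- SOD1-G93A library 2, and to 5.97 CPM or less in the other 8.

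The adult cord expressed Hox genes of every class. Compared per kilobase of exon, the level was highest in the middle of the clusters and lower towards both ends. The highest mean was that of Hoxb8, at 55.7 CPM per kilobase, followed by Hoxb9 at 30.1, Hoxb6 at 27.6 and Hoxc8 at 26.9. Hoxb8 and Hoxc8 belong to the group at the border of the brachial and thoracic cord. In group 10, Hoxc10 reached 16.2 CPM per kilobase, Hoxa10 reached 6.22 and Hoxd10 reached 4.84. The group 11 genes were close together, with Hoxa11 at 1.05, Hoxc11 at 1.06 and Hoxd11 at 1.11 CPM per kilobase. The exon length is that of all annotated exons joined, which is 10600 bases for Hoxa3 and 10979 for Hoxc6, so a gene with unused exons appears lower on this scale.

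**Figure D1:**
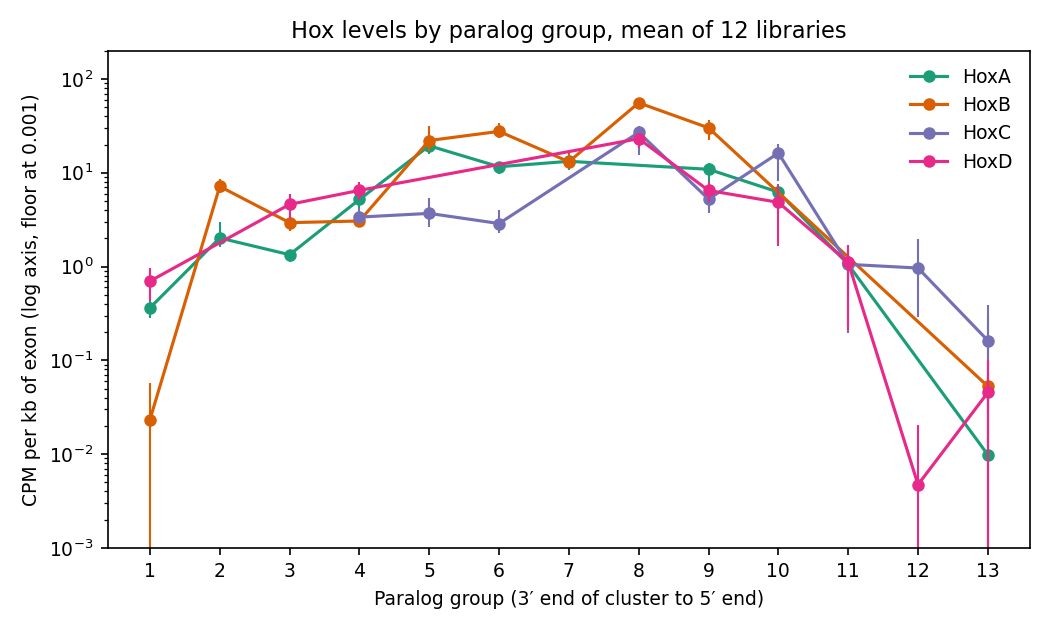
Mean level of each Hox gene over 12 libraries, in CPM per kilobase of exon on a log axis, against paralog group from 1 to 13, with 1 line per cluster. Vertical lines run from the lowest to the highest library, and the values peak at Hoxb8 with 55.7 CPM per kilobase.

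Of the 39 genes, 34 had enough counts to be tested. The other 5 were near 0. Hoxa13 had from 0 to 3 counts per library, Hoxd12 from 0 to 2, Hoxb1, the only one from the 3′ end, from 0 to 4, and Hoxd13 from 0 to 10. Hoxb13 had 13 counts in Plekhg5+/+ library 2 and from 0 to 4 in the rest. Group 13 genes mark the tail end of the embryonic axis, and Hoxb1 is known for the hindbrain.

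Summed over all members, the Hox genes took a steady share of the libraries, between 801 and 890 CPM. The shares of the classes within this sum were less even. Groups 8 and 9 supplied between 41.2 and 51.6% of the Hox counts, groups 4 to 7 between 30.5 and 40.6%, groups 1 to 3 between 7.48 and 10.5%, groups 10 and 11 between 4.10 and 10.6%, and groups 12 and 13 between 0.0571 and 0.394%. These are shares of counts, to which long genes contribute more.

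The group 10 and 11 genes varied more among libraries of the same genotype than groups 1 to 9. Their biological coefficient of variation, which is the spread within genotypes left after counting noise, had a median of 0.336 over 6 genes, against 0.142 over the 34 tested members and 0.103 over all genes tested. Only the 2 tested genes of groups 12 and 13, which had few counts, had a higher class median, at 0.604. The ratio of the highest to the lowest library ran from 2.13 for Hoxa10 to 8.42 for Hoxc11. In groups 1 to 3, 4 to 7 and 8 to 9 that ratio was at most 2.24 for any tested gene. Hoxb8 was the steadiest member, with a ratio of 1.20 and a coefficient of 0.0713, while Hoxd11, with a coefficient of 0.543, lay in the 99.3th percentile of all genes.

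Hoxd10, known for lumbar motoneurons that supply the hindlimb, showed the pattern. It measured 15.6, 20.4 and 11.6 CPM in the 3 Plekhg5+/+ libraries, 4.67, 14.9 and 15.0 in Plekhg5-/-, 13, 14.7 and 6.34 in Plekhg5+/+ SOD1-G93A, and 17.4, 11.9 and 16.3 in Plekhg5-/- SOD1-G93A. Library 1 of Plekhg5-/- and library 3 of Plekhg5+/+ SOD1-G93A were the lowest, and the 4 genotypes overlapped. Hoxc10, also known for lumbar motoneurons, measured 35.2, 37.8 and 26.3 CPM in Plekhg5+/+, 15.7, 34.4 and 33.1 in Plekhg5-/-, 30.3, 31.6 and 26.2 in Plekhg5+/+ SOD1-G93A, and 37.1, 26.6 and 38.5 in Plekhg5-/- SOD1-G93A. The lowest library was the same as for Hoxd10, and library 3 of Plekhg5+/+, library 3 of Plekhg5+/+ SOD1-G93A and library 2 of Plekhg5-/- SOD1-G93A were each the lowest of their genotype. Hoxd11, a gene of the posterior cord and limb, measured 4.77, 7.16 and 3.37 CPM in Plekhg5+/+, 1.13, 5.02 and 5.83 in Plekhg5-/-, 4.64, 5.46 and 0.885 in Plekhg5+/+ SOD1-G93A, and 6.67, 4.01 and 6.99 in Plekhg5-/- SOD1-G93A. The same library of each genotype was again the lowest. Hoxd10 and Hoxd11 overlap on the same strand and each had counts that were not whole in 10 of 12 libraries, so their values share some reads.

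All 6 genes of groups 10 and 11 had their lowest value in 1 of 2 libraries. Hoxa10, Hoxc10 and Hoxd10 were lowest in Plekhg5-/- library 1, and Hoxa11, Hoxc11 and Hoxd11 in Plekhg5+/+ SOD1-G93A library 3. Of all genes tested, 11.3% had their lowest value in the former library and 13.5% in the latter. Summed over groups 10 and 11, the former library held 34.3 CPM and the latter 51.8, against a range of 60.1 to 91.8 CPM in the other 10.

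**Figure D2:**
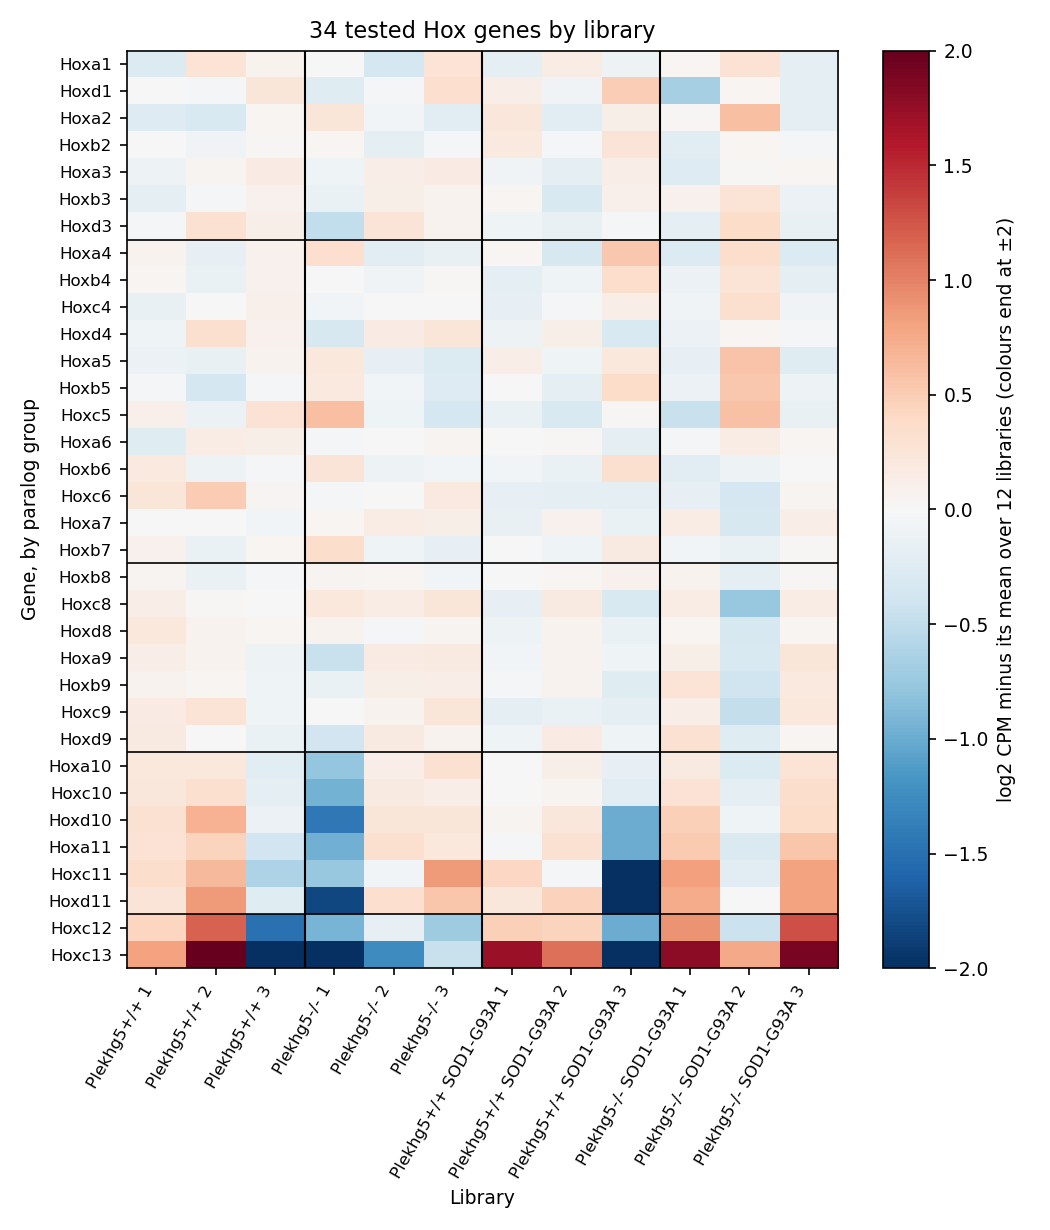
Each of the 34 tested Hox genes in each of the 12 libraries, as log2 CPM minus the gene's mean over all libraries, ordered by paralog group from top to bottom and by genotype from left to right. Blue cells in the lower rows stand in Plekhg5-/- library 1, Plekhg5+/+ SOD1-G93A library 3 and, for groups 11 to 13, Plekhg5+/+ library 3. Hoxc13 was also low in Plekhg5-/- library 2, at 0.0904 CPM.

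Groups 4 to 7 showed smaller differences, and several of their genes ran opposite to groups 10 and 11. Hoxa5, known for cervical motoneurons and brainstem respiratory circuits, measured 32.9, 32.5 and 37.6 CPM in Plekhg5+/+, 41.7, 31.9 and 29.8 in Plekhg5-/-, 39.3, 33.9 and 41.6 in Plekhg5+/+ SOD1-G93A, and 32.1, 53.2 and 30.2 in Plekhg5-/- SOD1-G93A. In each genotype its highest library was the one with the lowest Hoxd11. Hoxc5, which acts with Hoxa5 in phrenic motoneurons, had its highest values of 14.9 and 14.7 CPM in Plekhg5-/- library 1 and Plekhg5-/- SOD1-G93A library 2, and lay between 7.17 and 11.9 CPM in the others. Hoxb5 was highest, at 59.96 CPM, in Plekhg5-/- SOD1-G93A library 2. Hoxb6, the gene of this class with the most counts, measured 50.9, 41.3 and 43.5 CPM in Plekhg5+/+, 53.2, 41.5 and 42.7 in Plekhg5-/-, 42.9, 40.6 and 55.4 in Plekhg5+/+ SOD1-G93A, and 38.4, 41.5 and 44.6 in Plekhg5-/- SOD1-G93A. Its genotypes overlapped, with single high libraries in 3 of them. Hoxd4 did not follow its paralogs, with its lowest value of 13.2 CPM in Plekhg5-/- library 1, in a cluster stretch where Hoxd3, which shares its strand and some reads, was also lowest in that library at 9.41 CPM.

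Groups 8 and 9 set 1 library apart from the rest. Of their 7 genes, 5 were lowest in Plekhg5-/- SOD1-G93A library 2, where 6.04% of all tested genes had their lowest value. Hoxc8, known for motoneuron pools of the brachial cord, measured 69.5, 64.7 and 63.3 CPM in Plekhg5+/+, 73.0, 69.8 and 75.0 in Plekhg5-/-, 56.3, 71.8 and 51.1 in Plekhg5+/+ SOD1-G93A, and 69.9, 37.3 and 70.5 in Plekhg5-/- SOD1-G93A. Library 2 of the last genotype was far below the others, and that library also held the high dorsal root ganglion and hindbrain sums, whose part in the Hox values was not tested. Hoxc9, which sets thoracic motoneuron identity by repressing limb-level Hox genes, measured 10, 10.7 and 8.39 CPM in Plekhg5+/+, 8.81, 9.31 and 10.5 in Plekhg5-/-, 7.73, 8.12 and 7.83 in Plekhg5+/+ SOD1-G93A, and 9.81, 6.41 and 10.3 in Plekhg5-/- SOD1-G93A. The 3 Plekhg5+/+ SOD1-G93A libraries lay just below all 3 Plekhg5+/+ libraries. Hoxb8, whose loss is known to change grooming and pain behaviour, was at 170, 150 and 162 CPM in Plekhg5+/+, 171, 169 and 158 in Plekhg5-/-, 165, 169 and 174 in Plekhg5+/+ SOD1-G93A, and 172, 145 and 167 in Plekhg5-/- SOD1-G93A. Hoxd8, the highest gene of its cluster, measured 57.5, 52.3 and 51.3 CPM in Plekhg5+/+, 52.1, 48.3 and 51.5 in Plekhg5-/-, 46.4, 52.0 and 45.2 in Plekhg5+/+ SOD1-G93A, and 51.3, 39.95 and 51.0 in Plekhg5-/- SOD1-G93A. Both genes were lowest in the same library as Hoxc8, and their genotypes overlapped.

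Groups 1 to 3 varied about as little as groups 4 to 9, with a median coefficient of 0.145 against 0.121 in groups 4 to 7 and 0.135 in groups 8 and 9. Hoxb3, the most counted of them and a gene of the hindbrain and upper cord, measured 22.8, 25.5 and 27.5 CPM in Plekhg5+/+, 23.5, 28.2 and 27.3 in Plekhg5-/-, 26.5, 21.0 and 27.9 in Plekhg5+/+ SOD1-G93A, and 27.4, 31.3 and 24.0 in Plekhg5-/- SOD1-G93A. Of the 7 tested genes, 4 were highest in Plekhg5-/- SOD1-G93A library 2. Hoxa2, which patterns the rostral hindbrain, reached 5.34 CPM there and from 2.83 to 4.16 CPM elsewhere.

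Groups 12 and 13 rested on few counts. Hoxc12 had 36, 56 and 9 counts in the Plekhg5+/+ libraries, 14, 23 and 15 in Plekhg5-/-, 35, 32 and 13 in Plekhg5+/+ SOD1-G93A, and 47, 19 and 73.5 in Plekhg5-/- SOD1-G93A. Hoxc13 had 13, 30 and 1 counts in Plekhg5+/+, 1, 3 and 5 in Plekhg5-/-, 23, 14 and 1 in Plekhg5+/+ SOD1-G93A, and 24, 12 and 31 in Plekhg5-/- SOD1-G93A. Hoxc13 was thus at the limit of detection in library 3 of Plekhg5+/+, library 1 of Plekhg5-/- and library 3 of Plekhg5+/+ SOD1-G93A, which were also the lowest of their genotypes for Hoxd11.

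The spread was condensed into an index of cord level. This is the log2 ratio of the counts summed over groups 10 and 11 to those summed over groups 4 to 7, which is higher where caudal genes weigh more. Whether it followed the segments dissected was not tested. The index was -1.86, -1.66 and -2.31 in the Plekhg5+/+ libraries and -3.23, -1.84 and -1.78 in Plekhg5-/-. It was -1.999, -1.84 and -2.62 in Plekhg5+/+ SOD1-G93A, and -1.61, -2.42 and -1.66 in Plekhg5-/- SOD1-G93A. Each genotype had 1 library below -2.3 and a pair above it, at -1.999 or higher. As linear ratios, the caudal sum was between 0.107 and 0.326 of the rostral sum. The means were -1.94 ± 0.34 (SD, n = 3) in Plekhg5+/+, -2.28 ± 0.82 in Plekhg5-/-, -2.15 ± 0.41 in Plekhg5+/+ SOD1-G93A and -1.90 ± 0.45 in Plekhg5-/- SOD1-G93A.

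On this index, every difference between genotype means was smaller than the spread within genotypes. Plekhg5+/+ SOD1-G93A had a mean lower than Plekhg5+/+, with a difference of -0.21 and a pooled SD of 0.38, and lay 0.02 above it without library 3 of the transgenic group. Plekhg5-/- had a mean lower than Plekhg5+/+, with a difference of -0.34 and a pooled SD of 0.63, which became 0.13 without Plekhg5-/- library 1. Plekhg5-/- SOD1-G93A exceeded Plekhg5-/- by 0.39 with a pooled SD of 0.66, and the difference was -0.08 without the same library. It exceeded Plekhg5+/+ SOD1-G93A by 0.26 with a pooled SD of 0.43, and by 0.03 without library 3 of the latter. In 3 of the 4 comparisons, then, a single library set the direction.

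A second index, with groups 8 and 9 as the denominator, placed Plekhg5-/- SOD1-G93A library 2 differently. That library was at -2.44 on this scale, beside -2.38 and -2.32 in the other libraries of its genotype, and held the lowest sum of groups 8 and 9, at 330 CPM against 392 to 455 CPM in the others. Plekhg5-/- library 1 was the lowest on both scales, at -3.60 on the second. The genotype means on this scale were -2.46 ± 0.30 in Plekhg5+/+, -2.83 ± 0.66 in Plekhg5-/-, -2.65 ± 0.23 in Plekhg5+/+ SOD1-G93A and -2.38 ± 0.06 in Plekhg5-/- SOD1-G93A (SD, n = 3 each). The 2 SOD1-G93A genotypes did not overlap on it, with a difference of 0.27 and a pooled SD of 0.17, which was 0.14 without Plekhg5+/+ SOD1-G93A library 3.

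**Figure D3:**
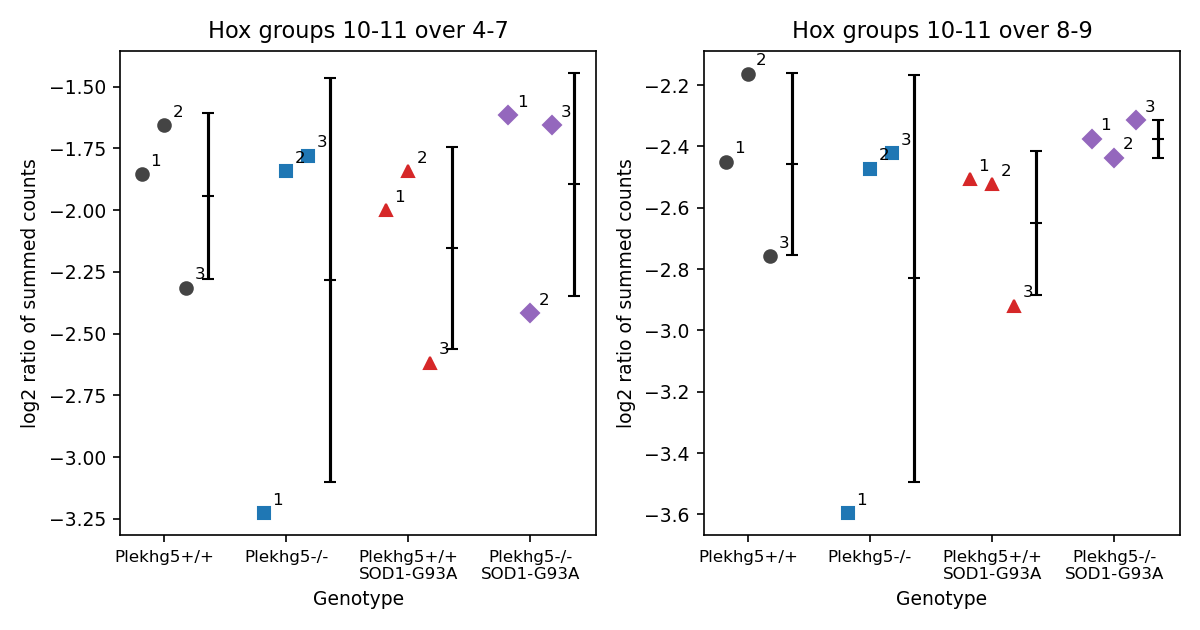
Log2 ratio of summed Hox counts in each library by genotype, with groups 10 and 11 over groups 4 to 7 on the left and over groups 8 and 9 on the right. Numbers are replicates, bars give mean ± SD of 3 libraries, and each genotype has 1 library below -2.3 on the left.

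Against this spread, no Hox gene passed an adjusted p of 0.05 in edgeR's quasi-likelihood test in any of the 5 comparisons, where p-values were adjusted over all 20155 genes tested. The comparison of Plekhg5+/+ SOD1-G93A with Plekhg5+/+ asked what the transgene changes in the cord. It called 0 of 34 Hox genes, against 2.47% of all genes, and 1 Hox gene was below an unadjusted p of 0.05, against 18.2% of all genes. Over the 34 members, log2 fold changes had a median of -0.07, against 0.00 over all genes, with 10 values above 0 and 24 below. The 6 genes of groups 10 and 11 all had values below 0, between -0.48 and -0.09, with adjusted p between 0.598 and 0.890. Library 3 of Plekhg5+/+ SOD1-G93A, low in these genes at a sum of 51.8 CPM, is on the transgenic side here. Plekhg5+/+ library 3, at 60.1 CPM, is on the other side. The part of these libraries in the fold changes was not tested.

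Hoxc6, which directs motoneurons of the brachial cord to the forelimb, came nearest to the threshold. It measured 36.8, 44.1 and 32.3 CPM in Plekhg5+/+, 30.6, 31.4 and 35.9 in Plekhg5-/-, 27.7, 27.3 and 27.5 in Plekhg5+/+ SOD1-G93A, and 27.9, 24.8 and 32.4 in Plekhg5-/- SOD1-G93A. The 3 Plekhg5+/+ SOD1-G93A libraries were nearly equal and lay below all 3 Plekhg5+/+ libraries, whose own range was wide. The log2 fold change was -0.46 (SE 0.12, 95% interval -0.71 to -0.20), with an adjusted p of 0.0594 from edgeR. DESeq2 gave an adjusted p of 0.00964 without shrinkage and 0.00926 with the shrinkage that the study used in its own tests. The adjusted p from edgeR was 0.230 without Plekhg5+/+ library 2, the highest, and 0.0369 without Plekhg5+/+ library 3. In Plekhg5-/- SOD1-G93A against Plekhg5-/-, the same gene's groups overlapped.

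Hoxc6 and Hoxc9 were the 2 of 34 genes whose libraries did not overlap between Plekhg5+/+ SOD1-G93A and Plekhg5+/+, against 20.6% of all genes. Hoxc9 had a log2 fold change of -0.30 (SE 0.16), with an adjusted p of 0.347 from edgeR. The motoneuron marker sums were also lower in this transgenic group. Whether these sums or cord level had a part in these differences was not tested.

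In Plekhg5-/- SOD1-G93A against Plekhg5-/-, which asks for the effect of the transgene in the absence of Plekhg5, 0 of 34 Hox genes were called, against 0.00496% of all genes. Below an unadjusted p of 0.05 lay 2 Hox genes, Hoxc12 and Hoxc13, against 5.38% of all genes. Hoxc13 had a log2 fold change of 2.76 (SE 1.02) and Hoxc12 of 1.33 (SE 0.60), with adjusted p of 0.833 and 0.912 from edgeR, both from the few counts given above. Hoxc13 was the 1 member whose libraries did not overlap, against 12.5% of all genes. The group 10 and 11 genes all had values above 0, between 0.13 and 0.57, with adjusted p of at least 0.950 from edgeR. Plekhg5-/- library 1, with a sum of 34.3 CPM over these genes, is here on the Plekhg5-/- side. Plekhg5-/- SOD1-G93A library 2, at 60.9 CPM, is on the other side. The part of these libraries in the fold changes was not tested. The median over the 34 genes was 0.05.

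In Plekhg5-/- against Plekhg5+/+, the effect of the Plekhg5 loss alone, 0 of 34 Hox genes were called, against 0.0298% of all genes, and 0 were below an unadjusted p of 0.05, against 5.32%. Hoxc13 had a log2 fold change of -2.25 (SE 1.07), with an adjusted p of 0.942 from edgeR. Hoxc6 had -0.21 (SE 0.12), with an adjusted p of 0.956. Hoxa7 and Hoxc8 were the 2 genes whose libraries did not overlap, both higher in Plekhg5-/-, against 8.71% of all genes, with log2 fold changes of 0.12 (SE 0.11) and 0.14 (SE 0.20) and an adjusted p of 0.997 for each from edgeR.

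In Plekhg5-/- SOD1-G93A against Plekhg5+/+ SOD1-G93A, which asks how the Plekhg5 loss changes the disease model, 0 of 34 Hox genes were called, against 0.0347% of all genes, and 1 was below an unadjusted p of 0.05, against 8.64%. This was Hoxb2, a gene of the hindbrain and upper cord, at 15.0, 12.9 and 15.5 CPM in Plekhg5+/+ SOD1-G93A and 11.2, 13.5 and 12.7 in Plekhg5-/- SOD1-G93A. The groups overlapped, and the log2 fold change was -0.22 (SE 0.10), with an adjusted p of 0.565 from edgeR. The next was Hoxd1, at 1.40, 1.22 and 1.80 CPM in Plekhg5+/+ SOD1-G93A and 0.802, 1.31 and 1.11 CPM in Plekhg5-/- SOD1-G93A, with a log2 fold change of -0.46 (SE 0.23) and an adjusted p of 0.589 from edgeR. No member was without overlap, against 19.5% of all genes. Groups 10 and 11 all had values above 0, between 0.09 and 0.81, with adjusted p of at least 0.657 from edgeR.

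The interaction, which asks whether the transgene acted differently with and without Plekhg5, called 0 Hox genes and 0 of all genes, with 0 Hox genes below an unadjusted p of 0.05, against 9.05% of all genes. DESeq2 called 98 of all genes and 0 Hox genes. Hoxc13 had the smallest p of the members, with an interaction of 2.93 on the log2 scale (SE 1.34) and an adjusted p of 0.551 from edgeR. The intervals of the caudal genes were wide. For Hoxd10 the 95% interval of the log2 fold change ran from -1.42 to 0.45 in Plekhg5+/+ SOD1-G93A against Plekhg5+/+. It ran from -0.51 to 1.36 in Plekhg5-/- SOD1-G93A against Plekhg5+/+ SOD1-G93A. A 2-fold decrease of this gene lies inside the first interval and a 2-fold increase inside the second, so neither is excluded.

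**Figure D4:**
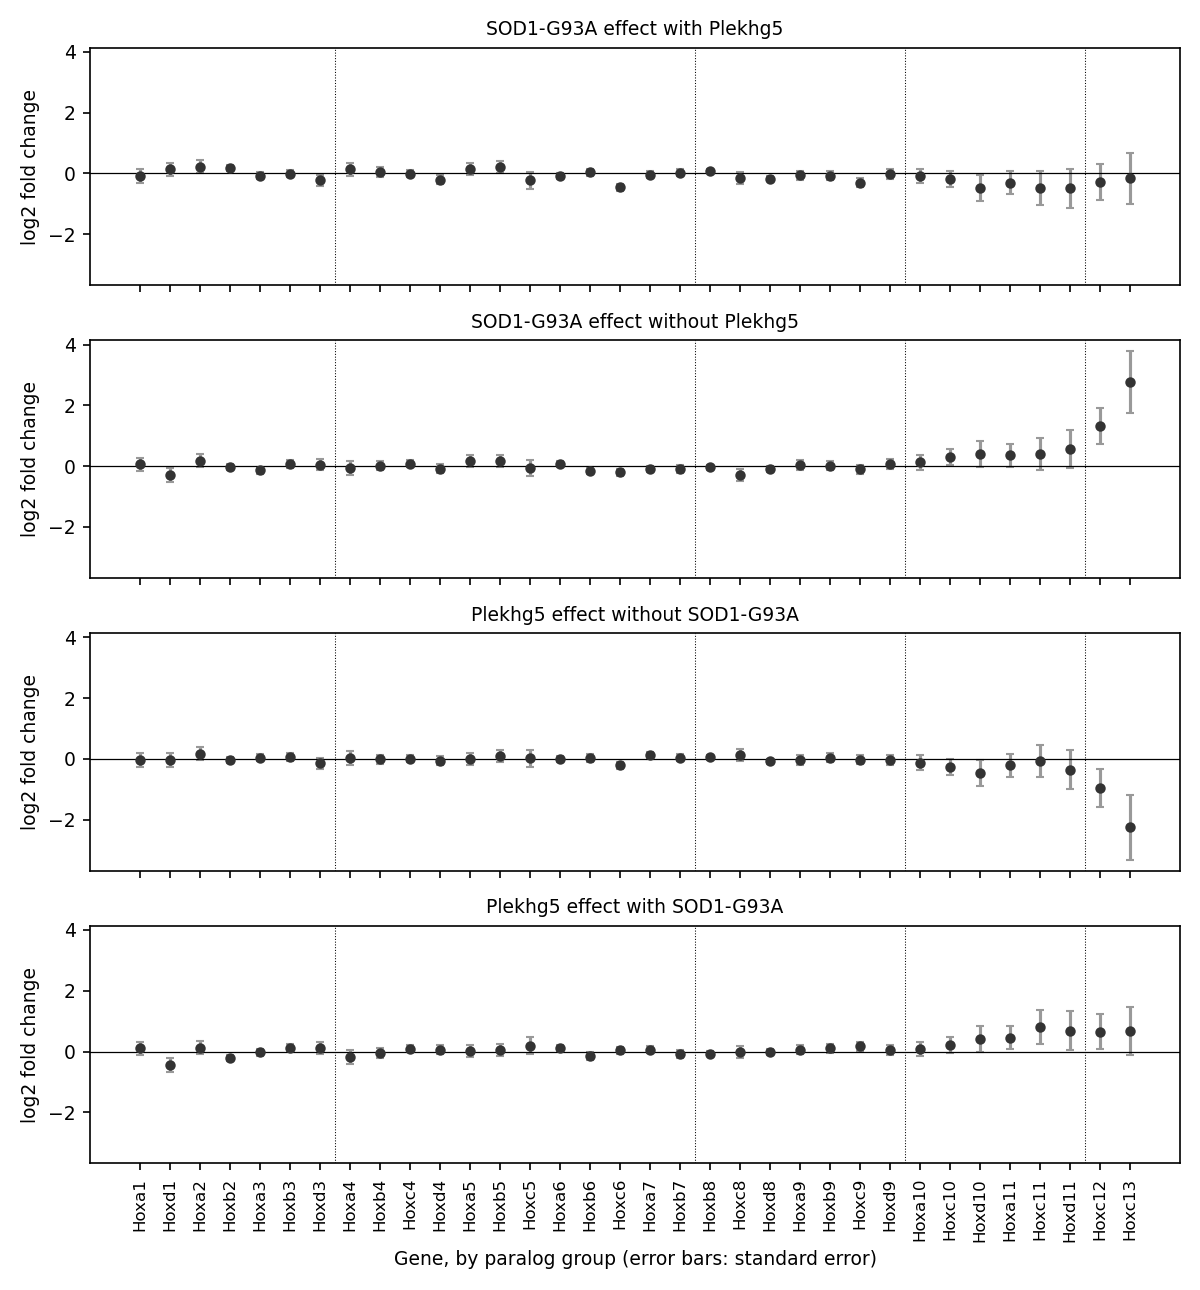
Log2 fold changes with standard errors of the 34 tested Hox genes, by paralog group from left to right, in 4 comparisons of genotypes. The error bars widen from group 10 on, the values of groups 10 and 11 share a sign within each comparison, and none of the genes had an adjusted p below 0.05.

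The partners and regulators of Hox genes were read from lists of 9 cofactors, 20 chromatin regulators, 10 upstream factors, 13 genes flanking the clusters and 10 non-coding RNAs of the clusters. None of their 54 tested genes was called in any of the 5 comparisons. Of all genes, 2.47% were called in Plekhg5+/+ SOD1-G93A against Plekhg5+/+ and at most 0.0347% in each other comparison. In Plekhg5-/- SOD1-G93A against Plekhg5-/-, Rarg, a receptor for the retinoic acid that activates 3′ Hox genes in the embryo, had a log2 fold change of 0.44 (SE 0.13) and an adjusted p of 0.666 from edgeR. In Plekhg5-/- against Plekhg5+/+, Pknox1, a homeodomain cofactor of Pbx and Hox proteins, had -0.28 (SE 0.09) and an adjusted p of 0.796. In Plekhg5-/- SOD1-G93A against Plekhg5+/+ SOD1-G93A, Meis2, another cofactor, had 0.20 (SE 0.08) and an adjusted p of 0.523 from edgeR. Cdx1 and Cdx2, which switch on central Hox genes in the embryo, had 0 counts in all 12 libraries.

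To ask which genes went with cord level inside a genotype, the index was fitted as a covariate beside the 4 genotypes, and the slope is the log2 change per unit of the index. For groups 4 to 7 and 10 to 11 the slope is a description, since these genes make the index. The slopes were 1.13 for Hoxd10, 0.69 for Hoxc10, 1.05 for Hoxa11 and 1.69 for Hoxd11. They were -0.65 for Hoxc5, -0.54 for Hoxa4, -0.44 for Hoxa5 and -0.43 for Hoxb5. Of the 12 genes of groups 4 to 7, 8 had slopes below 0 and 4 had slopes above 0, up to 0.28. Among the classes outside the index, all 7 genes of groups 8 and 9 had slopes above 0, up to 0.41 for Hoxa9, a gene of the lower thoracic cord, with an adjusted p of 0.0772 from edgeR. Hoxc12 and Hoxc13 had slopes of 1.33 and 2.73, each with an adjusted p of 0.319 from edgeR. The 7 tested genes of groups 1 to 3 lay between -0.40 and 0.11. Among these, Hoxa3, Hoxb3 and Hoxd3 overlap genes of groups 4 to 7 on the same strand, so they can share reads with the index. None of the 16 tested genes in the classes outside the index was called, against 0.0248% of all genes. That share includes 4 genes of groups 10 and 11, which make the index. Below an unadjusted p of 0.05 were 1 of 7 genes in groups 1 to 3 and 4 of 7 in groups 8 and 9. The same held for 2 of 2 in groups 12 and 13, against 14.8% of all genes. Hotair, a non-coding RNA from between Hoxc11 and Hoxc12, had a slope of 1.64 (SE 0.37) and an adjusted p of 0.319 from edgeR. It was lowest at 0.12 CPM in Plekhg5+/+ SOD1-G93A library 3 and 0.322 CPM in Plekhg5-/- library 1. The 3 markers of limb level motoneurons and the 2 of thoracic preganglionic neurons had median slopes of 0.14 and 0.09, and none was called.

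Outside the Hox clusters, 1 of 20114 genes was called, or 0.00497%, and 2949 genes, or 14.7%, were below an unadjusted p of 0.05. This was Slc6a4, the serotonin transporter, whose mRNA lies in the serotonergic neurons of the brainstem, with a slope of -3.35 (SE 0.40) and an adjusted p of 0.0114 from edgeR. It measured 0.087, 0.0944 and 0.245 CPM in Plekhg5+/+, 0.322, 0.0603 and 0.0316 in Plekhg5-/-, 0.435, 0.099 and 1.80 in Plekhg5+/+ SOD1-G93A, and 0.493, 3.01 and 0.259 in Plekhg5-/- SOD1-G93A. In each genotype its highest library was the one with the lowest index, and the 6 libraries without the transgene held at most 11 counts. The adjusted p was 0.0912 without Plekhg5+/+ SOD1-G93A library 3 and 0.137 without Plekhg5-/- SOD1-G93A library 2, the 2 libraries with high hindbrain markers, and 0.0585 with the replicate number as a block. Over 17 alternatives it ran from 0.000643 to 1.0, the latter without the 3 libraries of lowest index.

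The 3 libraries with the lowest index were therefore not alike outside the Hox clusters. Tph2, which makes serotonin in the brainstem, was at 2.64 CPM in Plekhg5+/+ SOD1-G93A library 3 and 5.28 in Plekhg5-/- SOD1-G93A library 2, but at 0.79 CPM in Plekhg5-/- library 1, within the range of 0.401 to 1.28 CPM of the others. Dbh, which makes noradrenaline, was at 1.23 and 2.73 CPM in the first 2 and at 0.234 CPM in Plekhg5-/- library 1, within the range of 0 to 0.404 CPM of the others. Scn10a, a sodium channel of sensory ganglia, was at 8.21 CPM in Plekhg5-/- SOD1-G93A library 2 alone and at 0.567 CPM or less elsewhere. Without Plekhg5-/- library 1, 17 genes were called and all had slopes below 0. They included Slc18a2, the vesicular monoamine transporter, with -4.50, Dbh with -5.42, Scn10a with -6.56, Gcg, a peptide gene of the caudal brainstem, with -8.70, and the muscle genes Myh1 with -5.37 and Myot with -6.90. These fits were chosen after the values had been seen, and the part of brainstem, ganglion or muscle RNA in the Hox values was not tested.

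**Figure D5:**
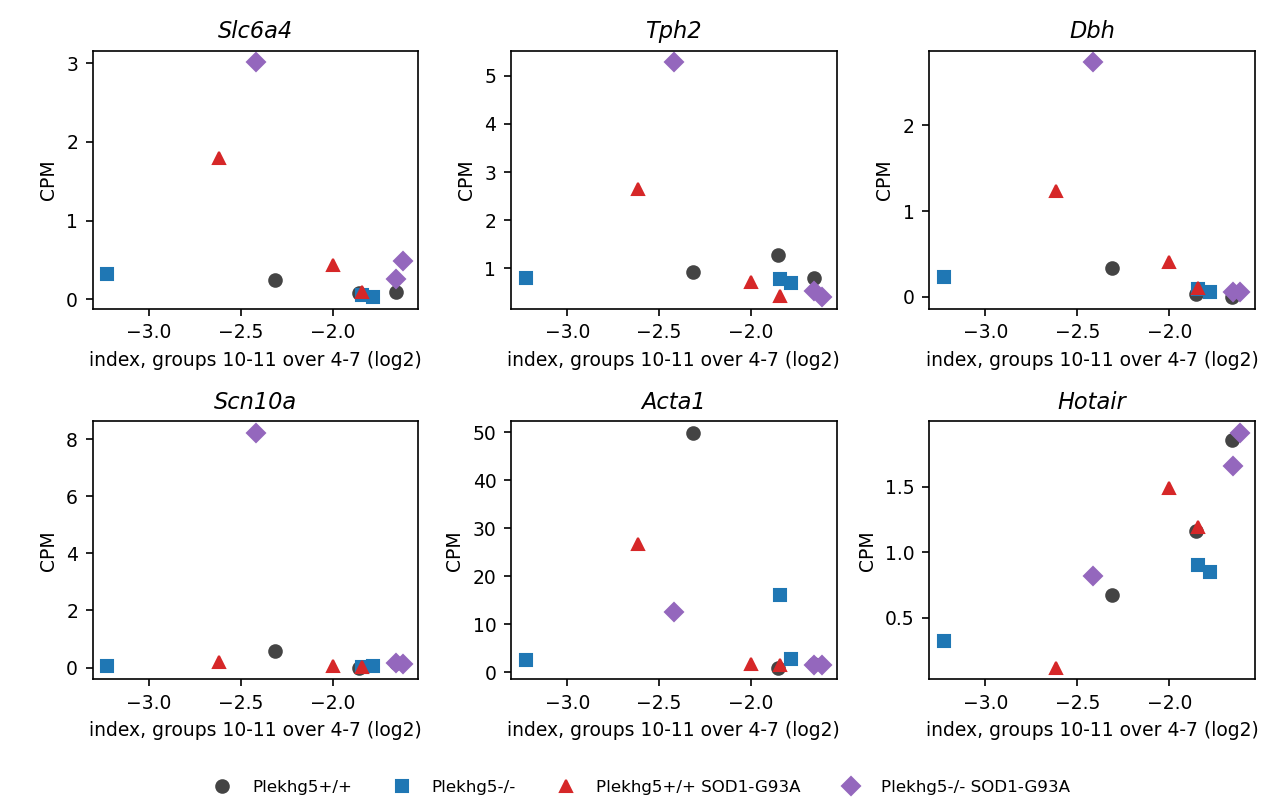
CPM of 6 genes outside the Hox protein-coding set in each library, against the index of groups 10 and 11 over groups 4 to 7, with genotypes as colours and symbols. Slc6a4, Tph2 and Dbh are high in 2 libraries with a low index and not in the lowest, Plekhg5-/- library 1, while Hotair is low in both that library and Plekhg5+/+ SOD1-G93A library 3.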

How the data were processed

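Spinal cord RNA of 12 mice was enriched for poly-A RNA and sequenced by the authors from 1 end. According to the study's methods and the submitters' processing notes, reads were demultiplexed with bcl2fastq 2.20.0.422, trimmed with Cutadapt 2.4, mapped with STAR 2.7.2b to GRCm38.p6 with the human SOD1 cDNA, and counted by strand on RefSeq exons with featureCounts 1.6.4. Reads on several places or overlapping genes were counted as fractions. The deposited values are estimated counts, not normalized by the authors, and between 17.3 and 18.1% of entries per library were not whole. Such splitting can blur overlapping neighbours such as Hoxd10 and Hoxd11.

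Counts were rounded for tests. Low genes were removed with filterByExpr, libraries were scaled by TMM, and 4 genotypes were fitted together by edgeR 4.0.16 (quasi-likelihood, robust) in R 4.3.3, with Benjamini-Hochberg adjustment over 20155 genes at a threshold of 0.05. CPM used the scaled library sizes. The level indices were described without a test. Alternatives were DESeq2 1.42.0, other filters, scalings and covariates, and leaving out each library. The study itself tested with DESeq2 and a prior that shrinks fold changes. Depth was between 30415643 and 38743628 counts, and intervals and limits at 0 cover the spread or counting error only. The scripts were tested on simulated data with 200 changed genes. The members, classes and gene lists were chosen with earlier results of these data known. Named were the members with the 2 smallest p in each comparison, the highest of each cluster and class, and Hoxc6, Hoxc8, Hoxc9, Hoxc10 and Hoxd10, as well as the list gene with the smallest p, of which 1 is not reported here. Hoxa2, Hoxa4, Hoxa7, Hoxa9, Hoxa11, Hoxb5, Hoxc5, Hoxd4, Hoxd11, Hotair and the genes outside the Hox clusters were named after their values were seen. Nothing states that replicates were prepared separately beyond being separate samples, so p-values measure the spread between these samples. No 2 libraries of a genotype agreed within sampling noise (chi-square per degree of freedom of at least 5.82). RefSeq promoters came from the GRCm38.p6 table.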

Additional observations from a re-analysis of the deposited data

How the results depend on the processing

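The count of 0 Hox genes called held in 100 of 104 recomputations over the 5 comparisons. In 4 of these comparisons at most 0.0347% of all genes were called in the main fit, so a count of 0 there says little. The 4 exceptions were all among the 21 recomputations of Plekhg5+/+ SOD1-G93A against Plekhg5+/+. There, 1 Hox gene, Hoxc6, was called without a filter on low counts (adjusted p 0.0494 from edgeR) and with DESeq2 without and with a prior (0.00964 and 0.00926). It was also called without Plekhg5+/+ replicate 3 (0.0369 from edgeR), so that leaving out single libraries gave between 0 and 1 called Hox genes. Over all alternatives, the adjusted p of Hoxc6 in that comparison lay between 0.00926 and 0.230 and its log2 fold change between -0.57 and -0.33. Correlations of same-numbered libraries lay between -0.16 and 0.32, with 5 of 18 above 0.1. Libraries of different numbers were not compared, so these values cannot show whether the replicate numbers pair the samples. With the replicate block, 0 Hox genes were called in each comparison. Hoxc6 then had a log2 fold change of -0.46 and an adjusted p of 0.0784 from edgeR. For Hoxc6, an adjusted p of 0.101 resulted without the 3 libraries of lowest index, an alternative chosen after seeing the data. Moves of the index differences were judged against the pooled SD. On the index over groups 4 to 7 this SD exceeded every difference, so a change of sign could fall within it. Of 72 recomputed index differences, 71 moved by less than 1 SD. The exception was groups 10 and 11 over 8 and 9 between the 2 SOD1-G93A genotypes, which was 0.51 with the mean of log2 CPM of the members instead of 0.27, and the cause was not tested. The number of all genes called in Plekhg5+/+ SOD1-G93A against Plekhg5+/+ was 498 and ran from 2 to 1205, with 4 without Plekhg5+/+ replicate 1, 2 without Plekhg5+/+ replicate 2 and 3 with only these 2 genotypes. The numbers ran from 0 to 44, 4 to 59, 4 to 113 and 0 to 111 in the 4 other comparisons, in the order of the report. The number outside the Hox clusters that went with the index ran from 0 to 27. The depth limits Hoxc13, Hoxb13 and the other genes of groups 12 and 13, which had few counts.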
